A study of Mus musculus with 23 samples.

Results

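The comparison described here is that of the mouse testis at 36.5 against 22.5 days postpartum (dpp), the last interval of the first spermatogenic wave that was sampled in vivo. Its members are the 5 libraries that the labels name as in vivo tissue of these ages, 3 at 22.5 dpp and 2 at 36.5 dpp, out of 23 columns and 22 distinct libraries in the series. All 5 came from fresh, untreated testes of CD-1 mice, an outbred stock, and the labels give no genetic modification. The series as a whole also holds testes at 6.5 and 10.5 dpp and explants of 6.5 dpp testes cultured for 4, 16 or 30 days (D4, D16, D30), some of them after controlled slow freezing. Whole testes were used, so germ cells and all somatic cells of the organ contribute to each library. The study describes the libraries as biological replicates, but its methods and the labels do not say which come from separate animals or litters. The p-values measure the spread between libraries, estimated over 21 libraries in 7 groups and not from these 5 alone.

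The testis makes sperm in seminiferous tubules, where spermatogonia divide, enter meiosis as spermatocytes and become haploid round spermatids, which then elongate. Elongation is a rebuilding of the cell: histones give way to transition proteins and then to protamines, the acrosome spreads over the nucleus, and a flagellum with its sheaths and mitochondria is assembled. Sertoli cells nurse the germ cells, Leydig cells between the tubules make androgens, and peritubular myoid cells and stroma form the wall. In the first wave the leading germ cells advance nearly together, so that the age of the animal sets the most advanced germ cell. Earlier germ cells remain beside them. The comparison addresses what changes in the testis transcriptome over the interval in which spermatids elongate.

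The poly(A) libraries held between 31634658 and 45586557 reads counted on genes at 22.5 dpp and between 33668932 and 38883013 at 36.5 dpp. Levels are given as counts per 1000000 counts of the library (CPM) scaled by edgeR's trimmed mean factors, in the order of the replicate numbers, and differences as log2 fold changes of 36.5 dpp over 22.5 dpp with their standard error. Adjusted p-values come from edgeR's quasi-likelihood test with Benjamini-Hochberg adjustment over the 19255 genes tested. As poly(A) counts are not divided by transcript length, levels are compared between libraries. The exception is the ranking of the most abundant genes, in which long transcripts stand higher for their length. In whole tissue, fewer cells of a type, less RNA per cell and a larger share of RNA from other cells cannot be told apart. The study gives a growing germ cell population as a possible reason for lower Sertoli and peritubular levels in vivo, which was not tested here.

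The defining markers of the testis were present in all 5 libraries: Gata4, a transcription factor of Sertoli and Leydig cells, lay at 61.2, 85.5 and 58.4 CPM at 22.5 dpp and 27.1 and 37.2 CPM at 36.5 dpp, and Cyp11a1, which starts steroid synthesis in Leydig cells, at 346, 251 and 337 CPM at 22.5 dpp and 720.2 and 583 CPM at 36.5 dpp. Of 17 genes that mark the epididymis, the duct lying against the testis, 12 were too low to be tested. The summed level of the 17 was 13.5, 7.79 and 12.85 CPM at 22.5 dpp and 24.2 and 25.3 CPM at 36.5 dpp. Of the 5 tested, 2 were higher at 36.5 dpp at an adjusted p under 0.05 and 0 lower. The summed level of the 6 red cell genes was between 26.1 and 47.2 CPM. The 22.5 dpp libraries differed among themselves: replicate 2 was less like replicates 1 and 3 (Spearman correlation across genes 0.981 and 0.979) than these were like each other (0.989). It held less of late germ cell genes, with a summed level of the acrosome list of 1698 CPM against 2950 and 3002, and more of Sertoli cell genes, 6640 against 4660 and 5503. At 36.5 dpp the summed level of 87 cytosolic ribosomal protein genes was 11210 CPM in replicate 1 and 5666 in replicate 2, and 85 oxidative phosphorylation subunits summed to 18550 and 10800. The causes of these differences were not tested. Fits that left out 1 of the 5 libraries give how far the results below depend on it. Counts of a list without 1 library are given for some lists where they moved by more than 1.5 times. Genes whose test result depended on 1 library are named at the end of their paragraph, and without either library of 36.5 dpp the remaining one is assumed to vary like the other groups.

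Between 22.5 and 36.5 dpp, 1707 genes were higher by at least 4-fold at an adjusted p of at most 0.001, 8.87% of the genes tested, and 199 genes were lower, 1.03% of those tested. Below, past 4-fold means both of these conditions, and rose or fell means an adjusted p under 0.05 at any fold. The call of a gene is that threshold passed, and values in parentheses after it are the log2 fold change and adjusted p of the fit without the library named. The changes upwards were also the larger: the median log2 fold change was 4.22 for the 1707 genes and -2.37 for the 199. Of the genes that were higher and had more than 3 counts in a library of 22.5 dpp, 211 were past 64-fold, while of the lower genes with more than 3 counts in a library of 36.5 dpp 14 were past 8-fold and 0 past 16-fold. In all 1707 and all 199 genes the levels of the 2 groups did not overlap, which held for 67.7% of all genes tested. At an adjusted p under 0.05 and any fold, 4485 genes were higher, 23.3%, and 5286 were lower, 27.5%. Smaller changes were thus more often downwards and large ones upwards, as the plot of log2 fold change against level shows. The counts of each list below are to be read beside these shares of all genes tested.

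**Figure D1:**
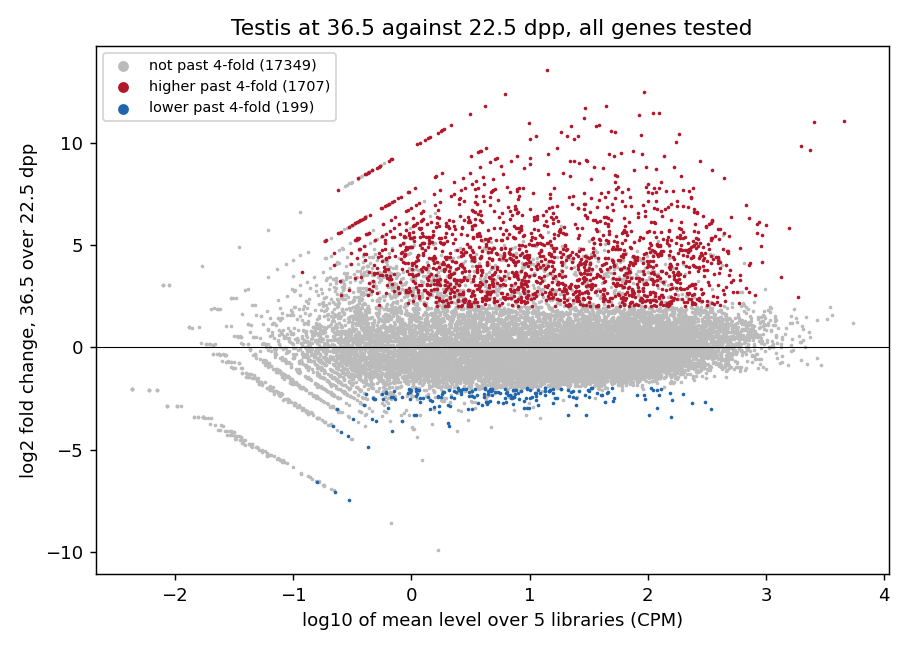
Log2 fold change of 36.5 over 22.5 dpp (vertical axis) against mean level (horizontal axis, log10 of the mean CPM over the 5 libraries) for the 19255 genes tested. Points are genes, coloured where they were 4-fold higher (1707) or lower (199) at an adjusted p of at most 0.001. The red points reach much further from 0 than the blue ones, and Col18a1, at -3.40, is among the lowest of the blue points of high level, while the furthest blue points are genes that no library of 36.5 dpp held with more than 3 counts. Genes with 0 counts in all 5 libraries (8) are not drawn.

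The balance of directions depends on how the libraries are scaled. With library size as the only scaling, 60.3% of the 4-fold calls were upwards and with RLE factors 94.4%, against 89.6% with trimmed mean factors. For calls at any fold the shares were 27.9%, 56.0% and 45.9%. The median log2 fold change over all genes was -0.13 with trimmed mean factors, -0.63 with library size and 0.07 with RLE factors, and all changes below are to be read against that median. Leaving out 22.5 dpp replicate 2 left 1091 genes higher and 86 lower, leaving out 36.5 dpp replicate 1 left 1084 and 67, and leaving out 36.5 dpp replicate 2 left 1084 and 184. Without 36.5 dpp replicate 1, 3207 genes were lower at any fold. In every fit without 1 of the 5 libraries, the change stayed at least 4-fold for 1569 of the 1707 higher genes and 92 of the 199 lower ones.

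The genes that were higher took a large part of the testis transcriptome at 36.5 dpp. The 1707 genes held 1.29 to 2.01% of all counts at 22.5 dpp and 18.4 to 18.7% at 36.5 dpp. At 10.5 dpp, when germ cells enter meiosis, they held 1.28 to 1.31%, and 67.7% of them were under 1 CPM in each of the 3 libraries, against 26.4% of all genes tested. The 199 genes that were lower held 0.486 to 0.800% at 22.5 dpp and 0.0643 to 0.0849% at 36.5 dpp, after 1.93 to 2.02% at 10.5 dpp. The 10 most abundant genes of each library took 2.25 to 2.60% of counts at 22.5 dpp and 3.86 to 4.48% at 36.5 dpp. By mean level, not corrected for transcript length, the 10 at 22.5 dpp included Dnah8, Ldhc, Slc2a3, Rsph1, the mitochondrial COX1, Phf7, Eef2, Fhl4 and Clu. At 36.5 dpp Prm2, Prm1, Tnp1, Tnp2, Odf2, Akap4 and Atp8b3 had joined Ldhc, Fhl4 and Phf7 there.

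The genes that pack the sperm nucleus had the highest median of all lists. Of 13 genes of nuclear condensation tested, 10 rose and 1 fell, 9 past 4-fold, with a median log2 fold change of 6.45. Prm1 and Prm2 encode the protamines that replace histones in the sperm head, and Tnp1 and Tnp2 the transition proteins that precede them. Prm1 lay at 4.22, 0.303 and 4.81 CPM at 22.5 dpp and 7809.7 and 4877 CPM at 36.5 dpp, a log2 fold change of 11.01 ± 1.21 (adjusted p = 2.06e-06). Prm2 lay at 7.05, 0.541 and 8.63 CPM at 22.5 dpp and 10949 and 11811 CPM at 36.5 dpp, a change of 11.05 ± 1.43 (adjusted p = 1.19e-05). For both protamines every library of 36.5 dpp was far above every library of 22.5 dpp.

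Tnp1 had 8.43, 0.476 and 13.5 CPM at 22.5 dpp and 7350.1 and 4508 CPM at 36.5 dpp, a log2 fold change of 9.64 ± 1.22 (adjusted p = 9.09e-06), and Tnp2 had 6.14, 1.41 and 8.67 CPM at 22.5 dpp and 5972 and 3949 CPM at 36.5 dpp, a change of 9.85 ± 1.02 (adjusted p = 1.16e-06). In all 4 genes the lowest library was 22.5 dpp replicate 2. Together the 4 genes held 0.000276 to 0.00321% of counts at 22.5 dpp and 1.62 to 2.12% at 36.5 dpp. Prm1, Prm2 and Tnp2 lie side by side on chromosome 16 with Prm3, a small acidic protein gene of the same cluster, which had 2.95, 0.238 and 5.12 CPM at 22.5 dpp and 261 and 335 CPM at 36.5 dpp. Chromosome 16 as a whole held 2.73 to 2.86% of counts at 22.5 dpp and 4.01 to 4.38% at 36.5 dpp.

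The promoters of these 4 genes are shown because they rose together and were among the 10 most abundant genes at 36.5 dpp. Each line gives the 100 bases before the start site in the RefSeq annotation of GRCm38.p6, 5′ to 3′ on the minus strand, on which all 4 genes lie. Capitals mark the letters TGANGTCA or their reverse complement TGACNTCA (N is any base), the core of the cAMP response element and its variants, and TATA starting 40 to 20 bases before the start.
Prm1 (chr16:10796824-10796923): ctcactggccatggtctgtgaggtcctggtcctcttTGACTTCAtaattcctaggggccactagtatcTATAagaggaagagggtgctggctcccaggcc
Prm2 (chr16:10792106-10792205): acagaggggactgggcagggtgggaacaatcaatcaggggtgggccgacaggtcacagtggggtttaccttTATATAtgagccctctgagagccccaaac
Tnp1 (chr1:73015900-73015999): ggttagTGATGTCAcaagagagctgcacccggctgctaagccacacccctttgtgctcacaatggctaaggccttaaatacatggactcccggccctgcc
Tnp2 (chr16:10788656-10788755): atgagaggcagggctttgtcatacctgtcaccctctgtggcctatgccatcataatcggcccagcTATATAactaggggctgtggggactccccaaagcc

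Prm1 and Tnp1 hold 1 match to the response element letters each, and Prm1, Prm2 and Tnp2 hold TATA in the window. Over the 250 bases before the start, 268 of 1363 genes that were 4-fold higher and had a promoter in the table held the response element letters on either strand, 19.7%. The share was 8.55% over all 27025 genes in the table, 8.71% over the 15120 of them that were tested, and 6.29% over 143 of the 199 genes that were lower. TATA at that distance stood in 6.9% of the higher genes, 6.91% of all genes in the table and 5.33% of those tested. These are matches of letters in a window and not binding sites.

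**Figure D2:**
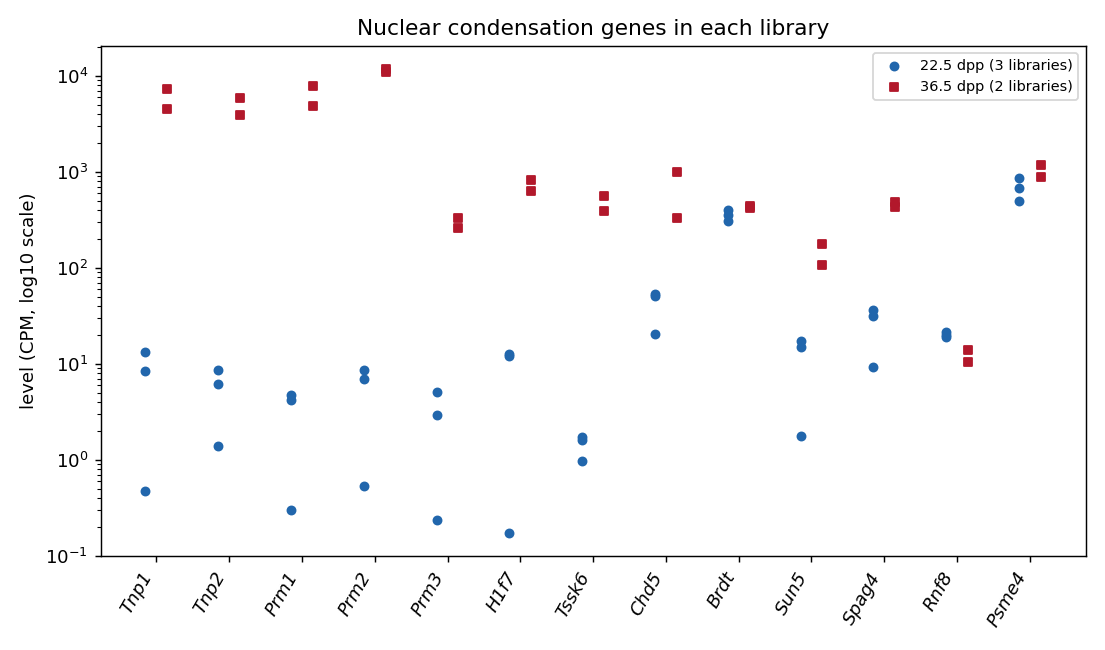
Levels of the 13 nuclear condensation genes in each library (vertical axis, CPM on a log10 scale). Each point is 1 library, circles for the 3 of 22.5 dpp and squares for the 2 of 36.5 dpp. The squares lie above the circles for 10 genes that rose and below them for Rnf8, and Brdt and Psme4, which did not pass the test, lie close together.

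Other members of the list followed with smaller steps. H1f7, the linker histone of spermatids, had 12.3, 0.173 and 12.6 CPM at 22.5 dpp and 629.6 and 821 CPM at 36.5 dpp (log2 fold change 6.45 ± 1.14, adjusted p = 0.000216). Tssk6, a kinase of spermatids, had 1.63, 0.974 and 1.72 CPM at 22.5 dpp and 561 and 389 CPM at 36.5 dpp, and its change of 8.38 ± 0.57 had the smallest adjusted p of the list (1.47e-08). Chd5, a chromatin remodeller of spermatids, and Spag4 and Sun5, which tie the nucleus to the cytoskeleton, changed by 3.98 ± 0.63, 4.16 ± 0.64 and 3.65 ± 0.90. Genes of the list that act in meiosis or early spermatids as well had small values: Brdt, the testis bromodomain protein, had 401, 306 and 355 CPM at 22.5 dpp and 440.2 and 427 CPM at 36.5 dpp (adjusted p = 0.513), and Rnf8, a ubiquitin ligase of histone removal, fell by 0.73 ± 0.18 (adjusted p = 0.00334). The call of Rnf8 ended without 36.5 dpp replicate 1 (-0.53, adjusted p = 0.0764).

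Of 13 testis histone genes, 6 rose and 1 fell, 5 of them past 4-fold. The short H2A and H2B variants of spermatids led: H2al2a had 0.542, 0 and 0.948 CPM at 22.5 dpp and 232 and 147 CPM at 36.5 dpp and H2bl1 3.22, 0.238 and 3.65 CPM at 22.5 dpp and 253 and 218 CPM at 36.5 dpp, changes of 8.67 ± 1.00 and 6.66 ± 1.00 (adjusted p = 6.98e-06 and 7.9e-05). H2ap and H2al3 changed by 7.60 ± 1.21 and 7.32 ± 1.13. H2al1m belongs to a family of near-identical copies, so its 7.17 is uncertain. The H2A and H2B forms that germ cells carry from meiosis on, H2ac1 and H2bc1, were low and did not pass the test (adjusted p = 0.628 and 0.499), and H2ax, which marks the sex body of spermatocytes, fell by 0.70 ± 0.23 (adjusted p = 0.0155). Replication histones mostly lack a poly(A) tail, which limits what these libraries hold of them. The call of H2ax ended without 22.5 dpp replicate 2 or 36.5 dpp replicate 2 (-0.62 and -0.55, adjusted p = 0.053 and 0.126).

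The flagellum is wrapped in coverings. Of 16 genes of the fibrous sheath and outer dense fibres, 15 rose and 0 fell, 8 past 4-fold, with a median of 3.35, and 12 rose without 22.5 dpp replicate 2, without either library of 36.5 dpp and with library size as the only scaling. Akap4, the main scaffold of the fibrous sheath, had 94.7, 14.4 and 92.2 CPM at 22.5 dpp and 4191 and 3449 CPM at 36.5 dpp, a change of 5.83 ± 1.07 (adjusted p = 0.000289). Odf1, an outer dense fibre protein, had 48.3, 8.79 and 58.5 CPM at 22.5 dpp and 2606 and 2286 CPM at 36.5 dpp (change 5.99 ± 1.04, adjusted p = 0.000189). Odf2 was high already at 22.5 dpp, with 1785, 935 and 2108 CPM at 22.5 dpp and 4521 and 8189 CPM at 36.5 dpp, and rose by 1.98 ± 0.41 (adjusted p = 0.000837). Akap3, Ropn1, Fscb and Cabyr, which lie in the fibrous sheath, changed by 4.12 ± 0.80, 5.51 ± 1.19, 5.19 ± 0.93 and 4.00 ± 0.66. Fsip2 was the member that did not pass, at 322, 178 and 209.6 CPM at 22.5 dpp and 257 and 457 CPM at 36.5 dpp (adjusted p = 0.223).

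Of 12 genes of the mitochondrial sheath, 9 rose and 0 fell, 5 past 4-fold, and without 36.5 dpp replicate 1 this was 5 and 0. Smcp, the cysteine-rich protein of the sperm mitochondrial capsule, had 42, 6.28 and 45.2 CPM at 22.5 dpp and 1600.2 and 2489 CPM at 36.5 dpp, a change of 6.04 ± 1.09 (adjusted p = 0.000261). Spata19, Tbc1d21 and Armc12, which are needed to lay mitochondria around the flagellum, changed by 5.37 ± 1.02, 5.01 ± 0.99 and 4.61 ± 0.97. Septin4, part of the annulus that ends the sheath, had 16.9, 7.32 and 18.9 CPM at 22.5 dpp and 160.2 and 285 CPM at 36.5 dpp and the smallest adjusted p of the list (2.83e-06). Gpx4, the selenium enzyme that becomes a structural protein there, had 117, 55.7 and 125 CPM at 22.5 dpp and 1097 and 360.5 CPM at 36.5 dpp, and its replicates at 36.5 dpp lay further apart than most. The call of Gpx4 ended without 36.5 dpp replicate 1 (1.86, adjusted p = 0.086).

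The axoneme is the microtubule core that these coverings surround. Of 31 axonemal genes 9 rose and 0 fell, 1 past 4-fold, with a median log2 fold change of 0.56 (0.07 with library size as the only scaling). The share that rose, 29.0%, was not far from the 23.3% of all genes tested, of which 27.5% fell. Without 22.5 dpp replicate 2, or without 36.5 dpp replicate 2, 5 rose. Heavy chains of the dynein arms were well expressed at 22.5 dpp. Dnah1 had 428, 249.5 and 346 CPM at 22.5 dpp and 189 and 406 CPM at 36.5 dpp and Dnah2 had 440.4, 259 and 345 CPM at 22.5 dpp and 158 and 396 CPM at 36.5 dpp, and the groups overlapped in both (adjusted p = 0.691 and 0.564). Dnah8 had 4397, 3124 and 3102 CPM at 22.5 dpp and 1241 and 2613 CPM at 36.5 dpp, with both libraries of 36.5 dpp below those of 22.5 dpp, but the difference did not pass the test (adjusted p = 0.259). All 4 tektins of the list, filament proteins within the microtubules, rose: Tekt2 had 124, 46.7 and 129 CPM at 22.5 dpp and 533 and 522 CPM at 36.5 dpp, a change of 2.40 ± 0.50 (adjusted p = 0.000781). Dnah3 also rose, by 3.22 ± 0.77 (adjusted p = 0.00235).

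Of 20 acrosomal genes 13 rose and 1 fell, 3 past 4-fold, with a median of 3.19. Without 22.5 dpp replicate 2, 11 rose and 1 fell. Spaca9 had 20.1, 6.78 and 21.4 CPM at 22.5 dpp and 521 and 366 CPM at 36.5 dpp and the smallest adjusted p of those that rose (1.24e-05), a change of 4.79 ± 0.62. Acr, the serine protease acrosin, was well expressed at both ages, 184, 77.3 and 165 CPM at 22.5 dpp and 349 and 381 CPM at 36.5 dpp, and rose by 1.36 ± 0.46 (adjusted p = 0.0205). Acrv1 and Spaca1, proteins of the acrosomal matrix and membrane, changed by 3.55 ± 0.92 and 3.12 ± 0.70. Gopc, the Golgi protein needed for acrosome formation in early spermatids, fell by 0.93 ± 0.25 (adjusted p = 0.00463). The call of Acr ended without 22.5 dpp replicate 2, 36.5 dpp replicate 1 or 36.5 dpp replicate 2 (1.06, 1.42 and 1.30, adjusted p = 0.088, 0.0616 and 0.0737). The call of Gopc ended without 36.5 dpp replicate 1 (-0.73, adjusted p = 0.0754).

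Sperm proteins that act on the egg rose in 10 of 11 cases, 7 past 4-fold, and 0 fell. Izumo1, the sperm ligand of the egg receptor Juno, had 17.5, 4.42 and 15.4 CPM at 22.5 dpp and 163 and 152 CPM at 36.5 dpp, a change of 3.67 ± 0.61 (adjusted p = 0.000137). Llcfc1 had 20.2, 3.7 and 23.4 CPM at 22.5 dpp and 505 and 392 CPM at 36.5 dpp, a change of 4.83 ± 1.01 (adjusted p = 0.000822). Cd46, which in the mouse is a protein of the inner acrosomal membrane, had 1.72, 1.84 and 1.16 CPM at 22.5 dpp and 38 and 20.2 CPM at 36.5 dpp (change 4.20 ± 0.38, adjusted p = 2.54e-07). Izumo4, a relative of Izumo1, had 137, 81.6 and 162 CPM at 22.5 dpp and 206 and 204 CPM at 36.5 dpp and did not pass (adjusted p = 0.101).

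In the ADAM family of membrane proteases and their inactive relatives, 14 of 19 rose, 5 past 4-fold, and 0 fell, with a median of 3.76. Within it the sperm surface proteins Adam2 and Adam3 were abundant at both ages: Adam2 had 906, 483 and 843 CPM at 22.5 dpp and 1222 and 895 CPM at 36.5 dpp (adjusted p = 0.361), and Adam3 rose by 1.35 ± 0.50 (adjusted p = 0.0325). Adam4, with the largest change of the family, had 3.1, 0.0433 and 2.04 CPM at 22.5 dpp and 153 and 72 CPM at 36.5 dpp, a change of 6.05 ± 0.90 (adjusted p = 4.58e-05), and Adam1a, low at 22.5 dpp as well, had 11.9, 3.55 and 15.2 CPM at 22.5 dpp and 113 and 313 CPM at 36.5 dpp, a change of 4.39 ± 0.59 (adjusted p = 1.83e-05). The pair Adam6a and Adam6b and the pair Adam26a and Adam26b are close copies that may share reads, so their separate values are uncertain. The call of Adam3 ended without 22.5 dpp replicate 2 or 36.5 dpp replicate 2 (1.06 and 0.97, adjusted p = 0.125 and 0.206).

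Of 19 ion channel and transporter genes 9 rose and 1 fell, 4 past 4-fold. CatSper is the calcium channel of the sperm tail, and its pore subunits Catsper1, Catsper3 and Catsper4 rose by 3.72 ± 0.87, 4.16 ± 0.82 and 3.59 ± 0.83 (adjusted p = 0.00186, 0.000512 and 0.00182). Catsper3 had 12.3, 2.45 and 13 CPM at 22.5 dpp and 176 and 153 CPM at 36.5 dpp. The remaining pore subunit, Catsper2, was well expressed at both ages with 339, 174 and 348 CPM at 22.5 dpp and 492 and 652 CPM at 36.5 dpp and rose by 1.00 ± 0.40 (adjusted p = 0.0462). The auxiliary subunit genes Catspere1 and Catsperb did not pass, with -0.41 and 0.47 (adjusted p = 0.285 and 0.449). Catsperb had 164, 77.4 and 98.4 CPM at 22.5 dpp and 199 and 114 CPM at 36.5 dpp, with overlapping groups. Atp1a4, the sperm sodium pump, had 39, 3.72 and 39.2 CPM at 22.5 dpp and 964 and 1396 CPM at 36.5 dpp, a change of 5.44 ± 0.95 (adjusted p = 0.000199), and Lrrc52, a subunit of the sperm potassium channel, changed by 4.22 ± 0.92 (adjusted p = 0.00118). Hvcn1, the proton channel, had 0.963, 1.91 and 1.47 CPM at 22.5 dpp and 0.719 and 0.678 CPM at 36.5 dpp and fell by 1.05 ± 0.33 (adjusted p = 0.0121). The call of Catsper2 ended without 22.5 dpp replicate 1, 22.5 dpp replicate 2, 36.5 dpp replicate 1 or 36.5 dpp replicate 2 (1.13, 0.74, 1.18 and 0.78, adjusted p = 0.0516, 0.173, 0.0722 and 0.216). The call of Hvcn1 ended without 22.5 dpp replicate 2, 36.5 dpp replicate 1 or 36.5 dpp replicate 2 (-0.80, -1.10 and -1.01, adjusted p = 0.0635, 0.0583 and 0.0682).

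Of 16 signalling genes of late spermatids and sperm, 11 rose and 1 fell, 9 past 4-fold. The testis-specific serine kinases were among them: Tssk2 had 22.7, 3.88 and 34.4 CPM at 22.5 dpp and 854 and 930.2 CPM at 36.5 dpp and Tssk3 9.66, 2.81 and 12.4 CPM at 22.5 dpp and 308 and 339 CPM at 36.5 dpp, changes of 5.46 ± 0.88 and 5.29 ± 0.76 (adjusted p = 0.0001 and 3.56e-05). Camk4 had 7.11, 5.35 and 8.92 CPM at 22.5 dpp and 104 and 114 CPM at 36.5 dpp, a change of 3.94 ± 0.28 (adjusted p = 2.15e-08). Of protein kinase A, the regulatory subunit gene Prkar2a had 25.7, 31.8 and 19.3 CPM at 22.5 dpp and 307 and 335 CPM at 36.5 dpp, a change of 3.65 ± 0.21 (adjusted p = 2.62e-09). The catalytic subunit gene Prkaca lay at 195, 151 and 183 CPM at 22.5 dpp and 193 and 199 CPM at 36.5 dpp (adjusted p = 0.387). Pde4d, a phosphodiesterase, fell by 1.34 ± 0.34 (adjusted p = 0.00369). The call of Pde4d ended without 36.5 dpp replicate 1 (-1.15, adjusted p = 0.0551).

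Genes that shape the head rose in 15 of 20 cases and fell in 1, 9 past 4-fold. Spem1, which acts in the removal of cytoplasm, had 3.52, 0.13 and 2.88 CPM at 22.5 dpp and 1073 and 679 CPM at 36.5 dpp, a change of 8.68 ± 0.97 (adjusted p = 2.55e-06). Actrt3, an actin relative of the perinuclear theca, had 0.331, 0.0217 and 0.421 CPM at 22.5 dpp and 121 and 88.2 CPM at 36.5 dpp, a change of 8.75 ± 0.80 (adjusted p = 3.22e-07), and Ccin, the theca protein calicin, changed by 6.25 ± 0.96 (adjusted p = 6.16e-05). Hook1, of the manchette, the microtubule skirt around the elongating nucleus, had 251, 203 and 216 CPM at 22.5 dpp and 652 and 782 CPM at 36.5 dpp, a smaller change of 1.68 ± 0.26 (adjusted p = 6.1e-05). Kifc1, a kinesin motor, fell by 0.76 ± 0.28 (adjusted p = 0.0294). The call of Kifc1 ended without 22.5 dpp replicate 2, 22.5 dpp replicate 3 or 36.5 dpp replicate 1 (-0.72, -0.73 and -0.36, adjusted p = 0.0676, 0.0573 and 0.37).

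Sperm burn sugar with isozymes of their own. Of 18 testis isozymes of energy metabolism 9 rose and 0 fell, 5 past 4-fold, and without 22.5 dpp replicate 2 this was 6 and 0. Gapdhs, the sperm glyceraldehyde phosphate dehydrogenase, had 39.9, 6.82 and 43.5 CPM at 22.5 dpp and 1988 and 2258 CPM at 36.5 dpp, a change of 6.14 ± 0.88 (adjusted p = 3.12e-05). Pgk2, the testis phosphoglycerate kinase, had 372, 140.2 and 326 CPM at 22.5 dpp and 2405 and 1621 CPM at 36.5 dpp and rose by 2.85 ± 0.63 (adjusted p = 0.00123). Hk1, the hexokinase that also has a sperm form, had 303, 151 and 339 CPM at 22.5 dpp and 1805 and 4044 CPM at 36.5 dpp, a change of 3.47 ± 0.49 (adjusted p = 2.62e-05). Ldhc, the testis lactate dehydrogenase of spermatocytes and later cells, was among the 10 most abundant genes at both ages, 4555, 2026 and 4107 CPM at 22.5 dpp and 9975 and 6312 CPM at 36.5 dpp, and its groups did not overlap, but the difference did not pass (adjusted p = 0.0508). Ldhc passed the test without 22.5 dpp replicate 1 or 36.5 dpp replicate 2 (1.41 and 1.49, adjusted p = 0.0481 and 0.0498).

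Of 17 somatic counterparts of these isozymes 2 rose and 5 fell, and without 22.5 dpp replicate 2 or 36.5 dpp replicate 1 the number that fell was 1 or 2. With all libraries 11.8% rose and 29.4% fell, against 23.3% and 27.5% of all genes tested. Pdha1, the X-linked pyruvate dehydrogenase subunit, had 19, 28.6 and 22.5 CPM at 22.5 dpp and 10.7 and 11.7 CPM at 36.5 dpp and fell by 1.06 ± 0.21 (adjusted p = 0.000463). Hk2 fell by 1.06 ± 0.38 (adjusted p = 0.0283). Aldoa and Eno1 went the other way, by 1.06 ± 0.18 and 1.38 ± 0.19 (adjusted p = 0.000135 and 2.62e-05). The call of Hk2 ended without 22.5 dpp replicate 2 or 36.5 dpp replicate 1 (-0.77 and -0.62, adjusted p = 0.126 and 0.292).

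Of 20 regulators of spermatid genes 10 rose and 1 fell, 3 past 4-fold, and 5 rose without 22.5 dpp replicate 2 and 6 without 36.5 dpp replicate 1. Crem, the transcription factor that acts at cAMP response elements in spermatids, had 176, 93.9 and 159 CPM at 22.5 dpp and 638 and 336 CPM at 36.5 dpp and rose by 1.77 ± 0.56 (adjusted p = 0.0144). Its partner Fhl5 (ACT) had 11.1, 1.19 and 11.4 CPM at 22.5 dpp and 597 and 301 CPM at 36.5 dpp, a change of 5.84 ± 1.06 (adjusted p = 0.000271). Spz1 and Sox5, transcription factors of spermatids, changed by 5.59 ± 0.98 and 3.69 ± 0.46 (adjusted p = 0.000202 and 7.72e-06). Taf7l, a germ cell form of a general transcription factor subunit, had 127, 150.0 and 116 CPM at 22.5 dpp and 64.2 and 46 CPM at 36.5 dpp and fell by 1.25 ± 0.22 (adjusted p = 0.000204). The call of Crem ended without 22.5 dpp replicate 2 or 36.5 dpp replicate 1 (1.54 and 1.23, adjusted p = 0.0618 and 0.163).

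**Figure D3:**
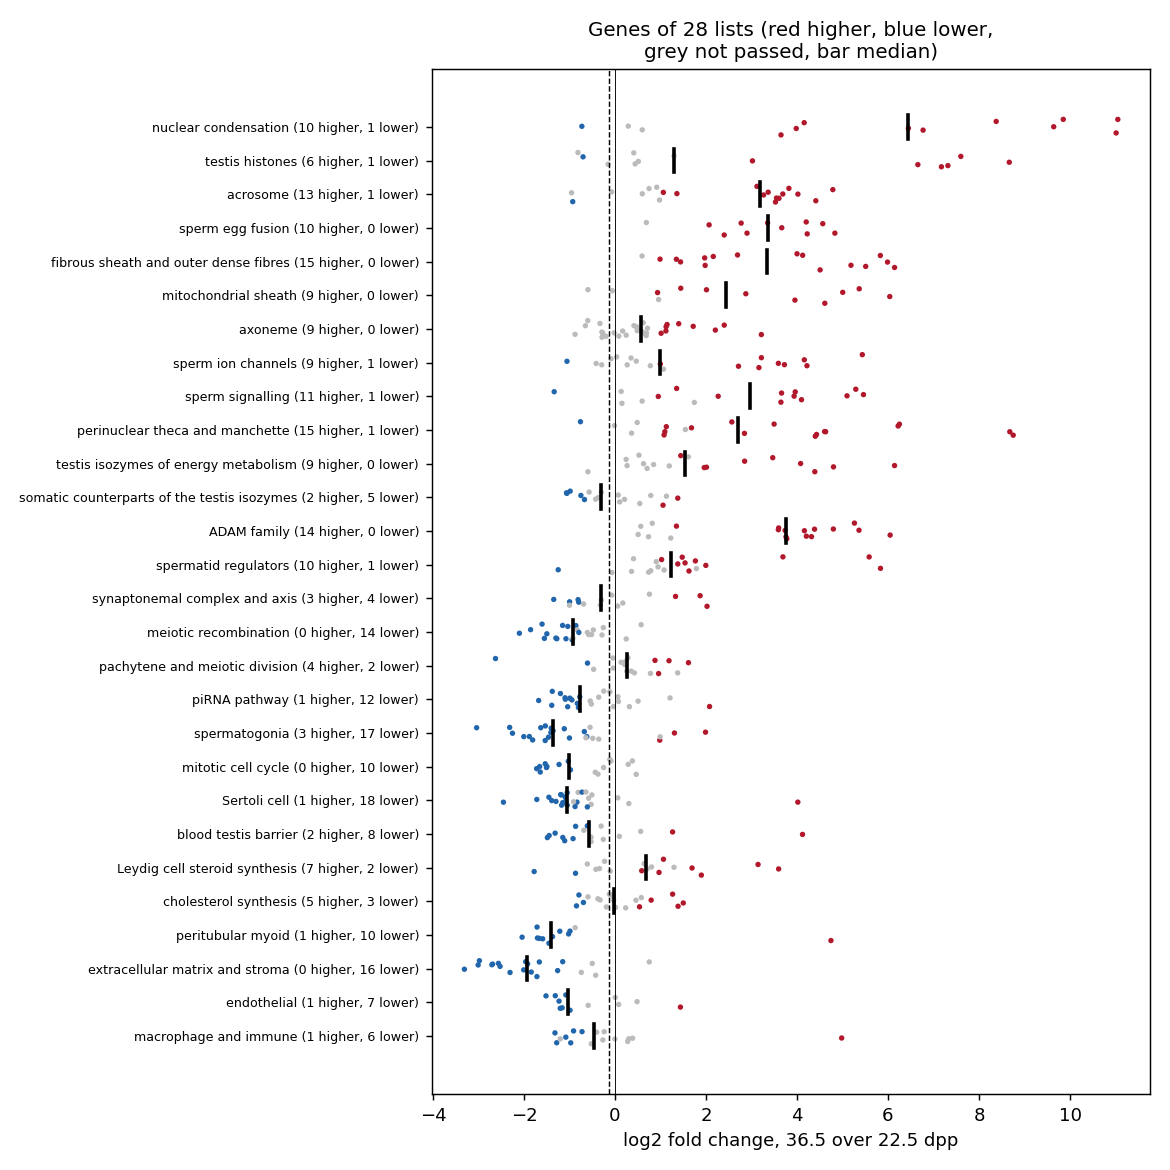
Log2 fold change of 36.5 over 22.5 dpp (horizontal axis) of each tested gene in 28 lists (rows, with the number of genes higher and lower at an adjusted p under 0.05). Points are genes, coloured where they passed that test, and the black bar is the median of the list. Lists of late spermatid structures lie to the right, meiotic recombination, spermatogonia, Sertoli cell and stroma lists to the left of 0, and the dashed line is the median of all genes (-0.13).

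Of 24 genes of meiotic recombination 0 rose and 14 fell, 1 past 4-fold, with a median of -0.93. Prdm9, which sets the sites of recombination, had 22.5, 21.6 and 20.6 CPM at 22.5 dpp and 4.27 and 5.79 CPM at 36.5 dpp and fell by 2.10 ± 0.27 (adjusted p = 9.98e-06). Msh5, of the complex that stabilizes crossovers, had 44.4, 43.9 and 45.6 CPM at 22.5 dpp and 19.1 and 27.4 CPM at 36.5 dpp and fell by 0.94 ± 0.27 (adjusted p = 0.00856), and the recombinase gene Dmc1 fell by 1.15 ± 0.40 (adjusted p = 0.024). Spo11, the enzyme that breaks DNA in meiosis, had 140.5, 100.2 and 139.8 CPM at 22.5 dpp and 89.2 and 77.2 CPM at 36.5 dpp and did not pass the test (adjusted p = 0.177). The call of Msh5 ended without 36.5 dpp replicate 1 (-0.70, adjusted p = 0.121). The call of Dmc1 ended without 22.5 dpp replicate 2 or 36.5 dpp replicate 2 (-1.08 and -0.89, adjusted p = 0.0592 and 0.169).

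Of 15 genes of the synaptonemal complex and chromosome axis 3 rose and 4 fell, while 2 fell without 22.5 dpp replicate 1 or 36.5 dpp replicate 1 and 1 without 36.5 dpp replicate 2. Sycp1, the transverse filament, had 386, 465 and 275 CPM at 22.5 dpp and 239 and 193 CPM at 36.5 dpp and fell by 0.80 ± 0.31 (adjusted p = 0.0385). Rec8, a meiotic cohesin, had 34.7, 21.1 and 38.2 CPM at 22.5 dpp and 116 and 139 CPM at 36.5 dpp and rose by 2.02 ± 0.27 (adjusted p = 1.95e-05), and Syce2, of the central element, rose by 1.87 ± 0.40 (adjusted p = 0.000912). Of 18 genes of pachytene and the meiotic divisions 4 rose and 2 fell, with a median of 0.27 that turns to -0.22 with library size as the only scaling. These were 22.2% and 11.1%, against 23.3% and 27.5% of all genes tested. Without 22.5 dpp replicate 2 or 36.5 dpp replicate 1 the number that rose was 2, and without 22.5 dpp replicate 1, 22.5 dpp replicate 3 or 36.5 dpp replicate 1 the number that fell was 1. Cdc25c, the phosphatase that starts division, had 17.2, 11.9 and 15.2 CPM at 22.5 dpp and 44.2 and 46.2 CPM at 36.5 dpp and rose by 1.61 ± 0.32 (adjusted p = 0.000507). Ccnb3, a cyclin of early meiosis, had 2.32, 2.25 and 2.18 CPM at 22.5 dpp and 0.449 and 0.279 CPM at 36.5 dpp and fell by 2.63 ± 0.42 (adjusted p = 9.67e-05). The call of Sycp1 ended without 22.5 dpp replicate 1, 22.5 dpp replicate 2, 36.5 dpp replicate 1 or 36.5 dpp replicate 2 (-0.78, -0.61, -0.96 and -0.64, adjusted p = 0.0705, 0.14, 0.0745 and 0.196).

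The piRNA pathway, which silences transposons with small RNAs, had 1 of 25 genes higher and 12 lower, 7 lower without 36.5 dpp replicate 1, and 2 higher without 36.5 dpp replicate 2. Piwil2 had 588, 661 and 523 CPM at 22.5 dpp and 217 and 338 CPM at 36.5 dpp and fell by 1.09 ± 0.29 (adjusted p = 0.00534), and Piwil4, the nuclear PIWI protein, fell by 1.68 ± 0.35 (adjusted p = 0.000775). Pnldc1, which trims piRNAs, had 29, 27.8 and 31.8 CPM at 22.5 dpp and 14.9 and 12.7 CPM at 36.5 dpp and the smallest adjusted p of the list (7.83e-05). Piwil1 had 1233, 984 and 1343 CPM at 22.5 dpp and 392 and 809 CPM at 36.5 dpp, both libraries of 36.5 dpp below the others, and did not pass (adjusted p = 0.0808). Gtsf1 had 183, 87.1 and 164 CPM at 22.5 dpp and 737 and 485 CPM at 36.5 dpp and rose by 2.08 ± 0.55 (adjusted p = 0.00447). Ddx4, the germ cell helicase, had 1080.2, 827 and 855 CPM at 22.5 dpp and 903 and 897 CPM at 36.5 dpp, with overlapping groups (adjusted p = 0.93). The call of Piwil2 ended without 36.5 dpp replicate 1 (-0.81, adjusted p = 0.0945). Piwil1 passed the test without 36.5 dpp replicate 2 (-1.60, adjusted p = 0.0383).

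Of 25 genes of spermatogonia 3 rose and 17 fell, 3 past 4-fold, with a median of -1.36. Zbtb16 and Ret, of undifferentiated spermatogonia, had 19.9, 38.1 and 16.3 CPM at 22.5 dpp and 6.52 and 10.6 CPM at 36.5 dpp and 8.88, 16.6 and 9.62 CPM at 22.5 dpp and 2.47 and 4.19 CPM at 36.5 dpp, and fell by 1.53 ± 0.46 and 1.81 ± 0.43 (adjusted p = 0.0106 and 0.00232). Id4, a marker of the stem cell pool, fell by 0.62 ± 0.22 (adjusted p = 0.0279). Bhmg1, a factor of cells that enter meiosis, had 73.5, 59 and 66.1 CPM at 22.5 dpp and 11.1 and 16.7 CPM at 36.5 dpp and fell by 2.25 ± 0.32 (adjusted p = 2.83e-05). Gfra1, the GDNF receptor of the stem cell pool, was one of the 3 that rose, at 7.68, 8.6 and 7.58 CPM at 22.5 dpp and 15.9 and 15.6 CPM at 36.5 dpp (change 0.98 ± 0.35, adjusted p = 0.0245). Rhox13, an X-linked homeobox gene, was another, at 1.45, 1.13 and 1.58 CPM at 22.5 dpp and 5.89 and 5.07 CPM at 36.5 dpp (change 1.99 ± 0.38, adjusted p = 0.000444). At 10.5 dpp Gfra1 had 27.3 ± 2.3 CPM (SD, n = 3). The call of Zbtb16 ended without 22.5 dpp replicate 2 or 36.5 dpp replicate 1 (-1.08 and -1.23, adjusted p = 0.0631 and 0.118). The call of Id4 ended without 22.5 dpp replicate 3 or 36.5 dpp replicate 2 (-0.56 and -0.46, adjusted p = 0.0711 and 0.197). The call of Gfra1 ended without 22.5 dpp replicate 1, 22.5 dpp replicate 3, 36.5 dpp replicate 1 or 36.5 dpp replicate 2 (0.96, 0.95, 0.97 and 1.00, adjusted p = 0.0569, 0.0573, 0.0923 and 0.0695).

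Genes of the mitotic cell cycle fell in 10 of 18 cases and rose in 0, and 6 fell without 36.5 dpp replicate 1. Mcm4 and Mcm6, of the replicative helicase, had 46.7, 66.7 and 44.6 CPM at 22.5 dpp and 14.3 and 17.6 CPM at 36.5 dpp and 88, 116 and 96 CPM at 22.5 dpp and 27 and 36.4 CPM at 36.5 dpp, and fell by 1.72 ± 0.20 and 1.66 ± 0.19 (adjusted p = 4.97e-06 and 3.97e-06). Mki67, the proliferation marker, fell by 1.50 ± 0.45 (adjusted p = 0.0104), and Dnmt1, the maintenance DNA methyltransferase, by 1.50 ± 0.36 (adjusted p = 0.00245). Pcna had 55.9, 48.9 and 58.2 CPM at 22.5 dpp and 91.5 and 50.3 CPM at 36.5 dpp, with overlapping groups (adjusted p = 0.476). The calls of Mki67 and Dnmt1 ended without 36.5 dpp replicate 1 (-1.06 and -1.09, adjusted p = 0.141 and 0.0581).

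Sertoli cell genes fell in 18 of 27 cases and rose in 1, with a median of -1.05, and 10 fell without 36.5 dpp replicate 1. Amh, the hormone that immature Sertoli cells make, was the steepest, at 29.4, 40.7 and 33.3 CPM at 22.5 dpp and 5.17 and 7.42 CPM at 36.5 dpp, and fell by 2.45 ± 0.24 (adjusted p = 6.62e-07) after 324 ± 15.5 CPM (SD, n = 3) at 10.5 dpp. Fshr, the receptor of follicle stimulating hormone, had 13.9, 16.8 and 12.5 CPM at 22.5 dpp and 5.71 and 4.83 CPM at 36.5 dpp and fell by 1.45 ± 0.21 (adjusted p = 3.56e-05), and Gata4, given above, fell by 1.09 ± 0.30 (adjusted p = 0.0065). Clu, the secreted chaperone clusterin, had 1498, 2242 and 1941 CPM at 22.5 dpp and 865 and 1196 CPM at 36.5 dpp and fell by 0.88 ± 0.26 (adjusted p = 0.00924). The member that rose was Ptgds, prostaglandin D synthase, at 4.64, 5.72 and 7.06 CPM at 22.5 dpp and 76.8 and 111 CPM at 36.5 dpp, a change of 4.02 ± 0.35 (adjusted p = 1.59e-07). The calls of Gata4 and Clu ended without 36.5 dpp replicate 1 (-0.88 and -0.66, adjusted p = 0.0873 and 0.113).

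Of 18 genes of the junctions between Sertoli cells 2 rose and 8 fell, 11.1% and 44.4%, against 23.3% and 27.5% of all genes tested. Cldn11, the claudin of the blood-testis barrier, had 179, 272 and 203 CPM at 22.5 dpp and 89.3 and 108 CPM at 36.5 dpp and fell by 1.15 ± 0.34 (adjusted p = 0.01). Cldn3, another claudin, had 3.19, 4.11 and 4.11 CPM at 22.5 dpp and 46.6 and 85.9 CPM at 36.5 dpp and rose by 4.12 ± 0.40 (adjusted p = 5.51e-07). Nectin3, the germ cell partner in the ectoplasmic specialization, had 549.6, 279.9 and 448 CPM at 22.5 dpp and 1102 and 947 CPM at 36.5 dpp and rose by 1.27 ± 0.36 (adjusted p = 0.00796). The calls of Cldn11 and Nectin3 ended without 36.5 dpp replicate 1 (-1.02 and 1.15, adjusted p = 0.0878 and 0.0565).

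Of 18 genes of Leydig cell steroid synthesis 7 rose and 2 fell, 2 past 4-fold, with a median of 0.67 (0.16 with library size as the only scaling, where 4 rose and 4 fell). Cyp17a1, which makes androgens from progestins, had 397, 259 and 356 CPM at 22.5 dpp and 1386 and 1126 CPM at 36.5 dpp, a change of 1.90 ± 0.30 (adjusted p = 9.41e-05). Insl3, a peptide hormone of mature Leydig cells, had 6.71, 20.3 and 35.8 CPM at 22.5 dpp and 263 and 244 CPM at 36.5 dpp, a change of 3.60 ± 0.70 (adjusted p = 0.000488), with the 3 libraries of 22.5 dpp spread widely. Hsd17b3, the last enzyme on the way to testosterone, had 12.5, 13.1 and 11.3 CPM at 22.5 dpp and 138 and 78.8 CPM at 36.5 dpp, a change of 3.14 ± 0.34 (adjusted p = 1.66e-06). Star, which brings cholesterol into mitochondria, had 97.6, 56.5 and 104 CPM at 22.5 dpp and 159 and 179 CPM at 36.5 dpp and rose by 0.97 ± 0.28 (adjusted p = 0.00776). Cyp11a1, given above, rose by 1.07 (adjusted p = 0.0224). Its call ended without 22.5 dpp replicate 2 (0.93, adjusted p = 0.0817) and also without 36.5 dpp replicate 1, where its change was 0.90.

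Srd5a1, which turns testosterone into other androgens in immature Leydig cells, had 20.8, 30.2 and 20.8 CPM at 22.5 dpp and 7.33 and 6.66 CPM at 36.5 dpp and fell by 1.78 ± 0.24 (adjusted p = 2.21e-05). The luteinizing hormone receptor gene Lhcgr had 47.8, 42.7 and 35.5 CPM at 22.5 dpp and 33.2 and 33.1 CPM at 36.5 dpp (adjusted p = 0.6), and Hsd3b6, a steroid dehydrogenase of adult Leydig cells, had 127, 151 and 137 CPM at 22.5 dpp and 135 and 102 CPM at 36.5 dpp (adjusted p = 0.722). Of 21 genes of cholesterol synthesis and supply 5 rose and 3 fell, with a median of -0.03 (0.16 with RLE factors). These were 23.8% and 14.3%, against 23.3% and 27.5% of all genes tested. With library size as the only scaling 3 rose and 11 fell, and without 22.5 dpp replicate 2 the number that fell was 1. Cyp51 had 66.7, 74.8 and 62.3 CPM at 22.5 dpp and 211 and 174 CPM at 36.5 dpp and Sqle 127, 108 and 116 CPM at 22.5 dpp and 201 and 206 CPM at 36.5 dpp, and they rose by 1.50 ± 0.23 and 0.80 ± 0.16 (adjusted p = 5.32e-05 and 0.000583). Mvd, an earlier enzyme of the pathway, fell by 0.85 ± 0.19 (adjusted p = 0.00121).

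Genes of the tissue around the tubules had lower levels. Of 20 genes of extracellular matrix and stroma 0 rose and 16 fell, 9 past 4-fold, with the lowest median of the lists, -1.94. Col3a1 and Col1a1, fibrillar collagens, had 482, 623 and 480.0 CPM at 22.5 dpp and 57.4 and 74.1 CPM at 36.5 dpp and 162, 241 and 144 CPM at 22.5 dpp and 19.6 and 26.6 CPM at 36.5 dpp, and fell by 3.01 ± 0.33 and 2.98 ± 0.41 (adjusted p = 2.13e-06 and 2.15e-05). Eln, elastin, had 143, 212 and 121 CPM at 22.5 dpp and 13.4 and 18.6 CPM at 36.5 dpp and fell by 3.31 ± 0.43 (adjusted p = 1.3e-05). Col6a1 fell by 2.53 ± 0.30 (adjusted p = 4.37e-06). Dcn and Sparc, a proteoglycan and a matrix protein, did not pass: Dcn had 242, 259 and 179 CPM at 22.5 dpp and 242 and 78.5 CPM at 36.5 dpp and Sparc 1347, 1777 and 1452 CPM at 22.5 dpp and 1298 and 975 CPM at 36.5 dpp (adjusted p = 0.372 and 0.196). Dcn passed the test without 36.5 dpp replicate 1 (-1.53, adjusted p = 0.035).

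Of 12 genes of peritubular myoid cells, the contractile cells of the tubule wall, 10 fell and 1 rose. Acta2, smooth muscle actin, had 199, 259 and 232 CPM at 22.5 dpp and 75.1 and 66.2 CPM at 36.5 dpp and Myh11, smooth muscle myosin, 107, 169 and 119 CPM at 22.5 dpp and 20.1 and 43.7 CPM at 36.5 dpp, and they fell by 1.70 ± 0.27 and 2.04 ± 0.49 (adjusted p = 9.42e-05 and 0.0022). The member that rose was Actg2, an actin of enteric smooth muscle, at 21.4, 9.55 and 21.1 CPM at 22.5 dpp and 425 and 504 CPM at 36.5 dpp, a change of 4.75 ± 0.42 (adjusted p = 2.22e-07). Endothelial genes fell in 7 of 12 cases and rose in 1, and 0 rose without 22.5 dpp replicate 2 or 36.5 dpp replicate 2. Cdh5, the cadherin of vessel walls, had 16.7, 24.9 and 17 CPM at 22.5 dpp and 7.28 and 10.2 CPM at 36.5 dpp and fell by 1.16 ± 0.27 (adjusted p = 0.00182).

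Of 16 macrophage and immune genes 6 fell and 1 rose, and 3 fell without 36.5 dpp replicate 1. With all libraries 37.5% fell and 6.25% rose, against 27.5% and 23.3% of all genes tested. Csf1r, the receptor that macrophages depend on, had 38.7, 45.3 and 41.2 CPM at 22.5 dpp and 18.9 and 25.5 CPM at 36.5 dpp and fell by 0.91 ± 0.29 (adjusted p = 0.0159), and Cx3cr1 fell by 1.28 ± 0.23 (adjusted p = 0.000273). Aif1, a macrophage marker in many organs, had 23.8, 7.69 and 29.1 CPM at 22.5 dpp and 604 and 672 CPM at 36.5 dpp and rose by 4.98 ± 0.57 (adjusted p = 3.54e-06). Of 6 fat cell genes tested 3 rose and 0 fell. Adipoq, the fat cell hormone adiponectin, had 0.994, 0.281 and 1.19 CPM at 22.5 dpp and 33.8 and 21.4 CPM at 36.5 dpp, a change of 5.09 ± 0.63 (adjusted p = 6.91e-06), and Plin1, the coat protein of fat droplets, lay at 12.8, 15.1 and 13.4 CPM at 22.5 dpp and 9.89 and 9.14 CPM at 36.5 dpp (adjusted p = 0.118). The call of Csf1r ended without 36.5 dpp replicate 1 (-0.71, adjusted p = 0.151).

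**Figure D4:**
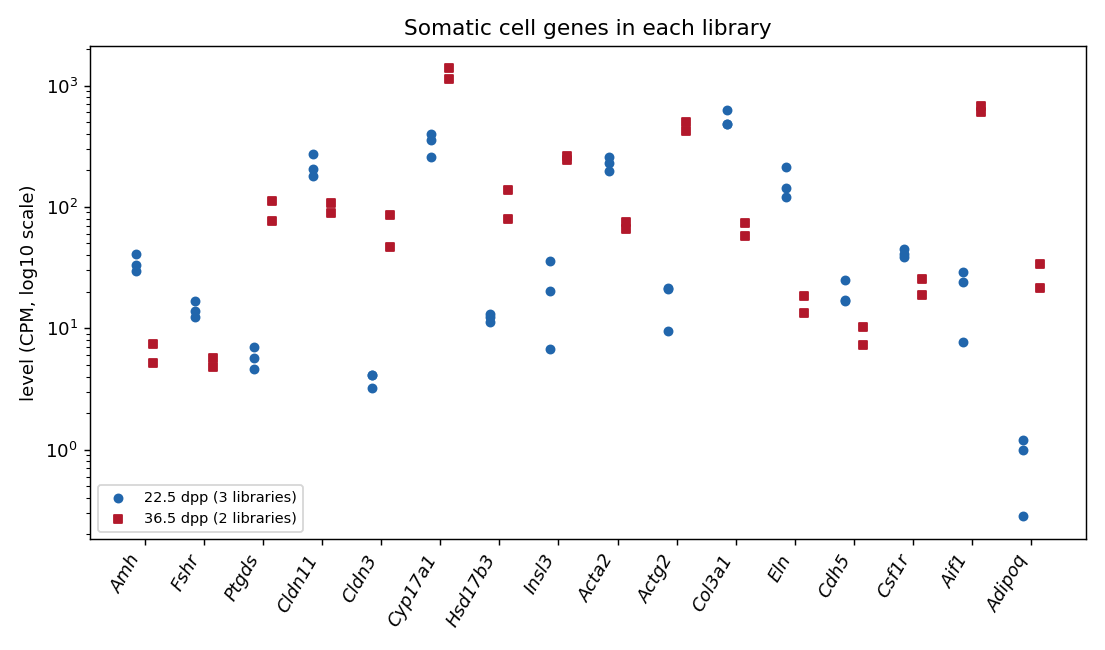
Levels of 16 genes of somatic cell lists in each library (vertical axis, CPM on a log10 scale), ordered as Sertoli, junction, Leydig, myoid, stroma, endothelial, macrophage and fat cell genes. Circles are the 3 libraries of 22.5 dpp and squares the 2 of 36.5 dpp. Amh, Fshr, Acta2, Col3a1, Eln, Cdh5 and Csf1r lie lower at 36.5 dpp, and Cyp17a1, Hsd17b3, Insl3, Ptgds, Cldn3, Actg2, Aif1 and Adipoq higher.

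Growth factors of the niche fell in 11 of 18 cases and rose in 0. Csf1 and Igf1 had 23.4, 40.4 and 23.5 CPM at 22.5 dpp and 7.73 and 8.94 CPM at 36.5 dpp and 51.2, 83.8 and 38.2 CPM at 22.5 dpp and 18.6 and 16.5 CPM at 36.5 dpp, and fell by 1.80 ± 0.28 and 1.72 ± 0.29 (adjusted p = 8.24e-05 and 0.000129). Kitl, the ligand that spermatogonia need, had 68.3, 110.1 and 49.7 CPM at 22.5 dpp and 37.1 and 25.8 CPM at 36.5 dpp and fell by 1.28 ± 0.29 (adjusted p = 0.00149). Gdnf, which keeps stem cells, had 2.11, 4.09 and 2.28 CPM at 22.5 dpp and 1.84 and 1.8 CPM at 36.5 dpp and did not pass (adjusted p = 0.203), after 21.8 ± 2.22 CPM (SD, n = 3) at 10.5 dpp. Of 11 imprinted growth genes 7 fell and 1 rose: Peg3 had 54.8, 83.9 and 39.5 CPM at 22.5 dpp and 9.44 and 14.5 CPM at 36.5 dpp and fell by 2.31 ± 0.37 (adjusted p = 9.72e-05), and Cdkn1c, the growth inhibitor of the group, had 4.55, 6.41 and 5.83 CPM at 22.5 dpp and 38.7 and 23.9 CPM at 36.5 dpp and rose by 2.48 ± 0.22 (adjusted p = 2.73e-07).

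Of 19 genes of retinoid metabolism and signalling 4 rose and 7 fell, and 4 fell without 36.5 dpp replicate 1. With all libraries 21.1% rose and 36.8% fell, against 23.3% and 27.5% of all genes tested. Cyp26b1, which breaks down retinoic acid, had 132, 216 and 128 CPM at 22.5 dpp and 32.6 and 40.9 CPM at 36.5 dpp and fell by 2.11 ± 0.36 (adjusted p = 0.000147), and Stra6, the retinol importer, fell by 1.65 ± 0.30 (adjusted p = 0.00025). Rxrg, a retinoid receptor, had 0.271, 0.173 and 0.105 CPM at 22.5 dpp and 3.46 and 2.23 CPM at 36.5 dpp and rose by 3.92 ± 0.42 (adjusted p = 1.59e-06). Of 12 immediate early and stress genes, which can respond to handling of tissue, 3 rose and 6 fell. Fos had 5.36, 4.81 and 5.05 CPM at 22.5 dpp and 0.449 and 0.798 CPM at 36.5 dpp and fell by 3.01 ± 0.35 (adjusted p = 3.89e-06), and Egr1 fell by 2.25 ± 0.36 (adjusted p = 9.54e-05). Hspa1b, a heat shock protein whose gene has a near copy beside it, had 3.91, 4.35 and 5.16 CPM at 22.5 dpp and 18.9 and 61.4 CPM at 36.5 dpp, a change of 3.17 ± 0.33 (adjusted p = 1.15e-06). That copy, Hspa1a, fell by 1.15 ± 0.43 (adjusted p = 0.0325), and how reads were split between the copies is uncertain. Of the ribosomal protein genes 12 of 85 rose and 8 fell, and of the oxidative phosphorylation subunits 16 of 84 rose and 2 fell, with medians of 0.29 and 0.66 that become -0.22 and 0.17 with library size as the only scaling. With that scaling 2 ribosomal protein genes rose and 20 fell, and 4 oxidative phosphorylation subunits rose and 10 fell. The ribosomal protein genes that rose and fell numbered 3 and 8 without 22.5 dpp replicate 1, 4 and 5 without 22.5 dpp replicate 2, 7 and 5 without 22.5 dpp replicate 3, 2 and 4 without 36.5 dpp replicate 1, and 15 and 4 without 36.5 dpp replicate 2. The oxidative phosphorylation subunits that rose numbered 9 without 22.5 dpp replicate 1, 7 without 22.5 dpp replicate 2 and 3 without 36.5 dpp replicate 1, and those that fell 1, 0 and 1 without 22.5 dpp replicate 2, 36.5 dpp replicate 1 and 36.5 dpp replicate 2. The call of Hspa1a ended without 22.5 dpp replicate 2, 22.5 dpp replicate 3 or 36.5 dpp replicate 1 (-1.03, -1.05 and -0.57, adjusted p = 0.086, 0.0737 and 0.347). Hspa1b had a change of 2.08 without 36.5 dpp replicate 2.

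On the X chromosome, which is silenced in spermatocytes, 315 of 800 genes fell at any fold, 39.4%, against 27.5% of all genes, and 187 rose, 23.4%. Its median log2 fold change was -0.64, the lowest of the chromosomes. Of its genes 21 were 4-fold lower, 2.62%, against 1.03% of all genes tested. Its share of counts did not separate the ages, with 1.38, 2.04 and 1.30% at 22.5 dpp and 1.49 and 1.16% at 36.5 dpp. Xlr3b, of an X-linked family with near-identical copies, had 0.632, 0.909 and 0.632 CPM at 22.5 dpp and 0.0899 and 0.16 CPM at 36.5 dpp and fell by 2.50 ± 0.46 (adjusted p = 0.000296), a value that is uncertain for that reason. Akap4, described above, is X-linked as well. On the Y chromosome Sly, a spermatid gene with many copies, had 0.0301, 0 and 0 CPM at 22.5 dpp and 0.405 and 0.519 CPM at 36.5 dpp and rose (adjusted p = 0.00317) from at most 3 counts in each library of 22.5 dpp, which is uncertain likewise.

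Of 1748 long noncoding RNA genes tested 385 were 4-fold higher, 22.0%, against 7.5% of 17231 protein-coding genes, and 4 were 4-fold lower. Of 1316 genes named as RIKEN clones 325 were 4-fold higher, 24.7% against 8.87% of all genes tested, and 2 lower, 0.152% against 1.03%. The 29 genes named Spata for their link to spermatogenesis had 22 that rose, 15 of them past 4-fold, and 3 that fell. The largest changes named, among genes with more than 3 counts in a library of each age, were of 1700015G11Rik and Acte1, a spermatid actin. 1700015G11Rik had 0.181, 0.0217 and 0.14 CPM at 22.5 dpp and 433 and 183 CPM at 36.5 dpp. Acte1 had 0.181, 0 and 0.14 CPM at 22.5 dpp and 326 and 227 CPM at 36.5 dpp. They changed by 11.48 ± 1.00 and 11.45 ± 1.06 (adjusted p = 1.88e-07 and 3.3e-07). Both were near 0 at 22.5 dpp, so the size of these changes is uncertain. Oxct2b, a testis enzyme of ketone use, had 0.211, 0.065 and 0.246 CPM at 22.5 dpp and 190.1 and 252 CPM at 36.5 dpp, a change of 10.38 ± 0.74 (adjusted p = 2.42e-08).

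The genes with the smallest p-values were even between replicates. Cdyl, a chromodomain protein that acts on histone acylation in spermatids, had 31.2, 34.9 and 30.6 CPM at 22.5 dpp and 397 and 384 CPM at 36.5 dpp, a change of 3.60 ± 0.16 (adjusted p = 3.37e-10). Ccsap, a centriole and cilium protein, had 3.49, 5.22 and 4.07 CPM at 22.5 dpp and 134 and 127 CPM at 36.5 dpp, a change of 4.94 ± 0.24 (adjusted p = 6.57e-10). Agpat2, an enzyme of phospholipid and triglyceride synthesis, changed by 5.39 ± 0.28 (adjusted p = 1.39e-09) and Csnk1g2, a casein kinase, by 3.22 ± 0.19 (adjusted p = 2.62e-09). Lcn2, a secreted lipocalin that binds bacterial iron carriers, had 9.36, 10.3 and 10.3 CPM at 22.5 dpp and 465 and 391 CPM at 36.5 dpp, a change of 5.42 ± 0.30 (adjusted p = 2.34e-09). Tuba4a, an alpha tubulin, had 9.36, 7.4 and 9.83 CPM at 22.5 dpp and 287 and 279.8 CPM at 36.5 dpp, a change of 5.00 ± 0.30 (adjusted p = 4.15e-09).

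Among the lower genes the smallest p-values belonged to Hs6st2, Cd276, Slc4a5 and Ces2g. Hs6st2, which modifies heparan sulfate, had 33.8, 39.1 and 26.6 CPM at 22.5 dpp and 3.06 and 3.59 CPM at 36.5 dpp and fell by 3.32 ± 0.24 (adjusted p = 2.48e-08), and Cd276, an immune checkpoint protein, had 13.2, 18 and 12.4 CPM at 22.5 dpp and 1.71 and 1.99 CPM at 36.5 dpp and fell by 2.97 ± 0.24 (adjusted p = 9.6e-08). Col18a1, a basement membrane collagen, had 232, 287 and 225 CPM at 22.5 dpp and 23.3 and 23.8 CPM at 36.5 dpp and fell by 3.40 ± 0.33 (adjusted p = 6.55e-07). Thbd, thrombomodulin of vessel walls, fell by 2.50 ± 0.25 (adjusted p = 7.15e-07). Ubash3a differed from these in its history: it had 24.3, 8.73 and 20.6 CPM at 22.5 dpp and 1.75 and 3.27 CPM at 36.5 dpp and fell by 2.82 ± 0.43 (adjusted p = 5.64e-05), but its level at 10.5 dpp was 4 ± 0.252 CPM (SD, n = 3), below each library of 22.5 dpp.

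The study set culture of explants beside the testis, D16 and D30 being the ages that match 22.5 and 36.5 dpp. These 6 culture libraries, 2 at D16 and 4 at D30, of which 1 had been frozen, share none with the testis groups, so the step between the ages can be compared between testis and culture. Steps were taken with their sign, so a lower step can be a larger fall in the testis. The step was higher in the testis than in culture for 269 genes, 1.4% of those tested, and lower for 52, 0.27%, 321 in all. These differences were at least 4-fold at an adjusted p of at most 0.001. The balance turned over with library size as the only scaling, under which the step was higher for 149 genes and lower for 211. With RLE factors the numbers were 327 and 34. The number of genes whose steps differed was 204 without 22.5 dpp replicate 1, 196 without 22.5 dpp replicate 2, 173 without 36.5 dpp replicate 1 and 184 without 36.5 dpp replicate 2. In culture itself Lcn2 was the single gene past 4-fold at that threshold, and 281 genes rose and 64 fell at an adjusted p under 0.05. Of the 1707 genes that were 4-fold higher in the testis, 1552 had a higher fitted level at D30 than at D16, 90.9% against 51.3% of all genes tested, with a median culture change of 1.23. Of these 1707 genes 209 passed the test in culture, and the difference between the steps passed its own test for 249. As the genes were chosen by the testis step that enters this difference, the 249 are no separate support for a smaller step in culture. Those 1707 genes held 1.18 to 1.74% of counts at D16 and 1.95 to 3.49% at D30.

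Prm1 had a mean of 1.14 CPM at D16 and 202 at D30, a culture change of 7.47 (adjusted p = 0.00471), and the difference from the testis step was 3.54 ± 1.25 (adjusted p = 0.0522). Cdyl had 60.5 CPM at D16 and 79.7 at D30, and the difference between the steps was 3.20 ± 0.21 (adjusted p = 1.33e-07). For Phospho1, a phosphatase, which had 0.241, 0.39 and 0.316 CPM at 22.5 dpp and 17.8 and 19.4 CPM at 36.5 dpp, it was 5.89 ± 0.40 (adjusted p = 1.33e-07), with 1.18 and 1.15 CPM in culture. Prkar2a, Camk4 and Tssk6 differed by 3.45 ± 0.27, 3.13 ± 0.36 and 4.25 ± 0.66 (adjusted p = 8.1e-07, 2.29e-05 and 0.000409).

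Among Leydig cell genes Hsd17b3 rose in the testis and had 7.12 CPM at D16 and 3.93 at D30, a difference between the steps of 4.00 ± 0.45 (adjusted p = 2.08e-05). For Cyp17a1 the difference was 0.59 ± 0.42 and did not pass (adjusted p = 0.33), with 13.5 and 33.4 CPM in culture. Of the genes that fell in the testis, Col18a1 had 271 and 222 CPM in culture and a difference of -3.11 ± 0.42 (adjusted p = 0.000122), and Cd276 one of -2.38 ± 0.31 (adjusted p = 7.79e-05). Prdm9 had 13.7 CPM at D16 and 13.5 at D30, a difference of -2.09 ± 0.35 (adjusted p = 0.000769). Amh fell in both, with a culture change of -1.29 (adjusted p = 0.00372), and its steps differed by -1.16 ± 0.31 (adjusted p = 0.0146).

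**Figure D5:**
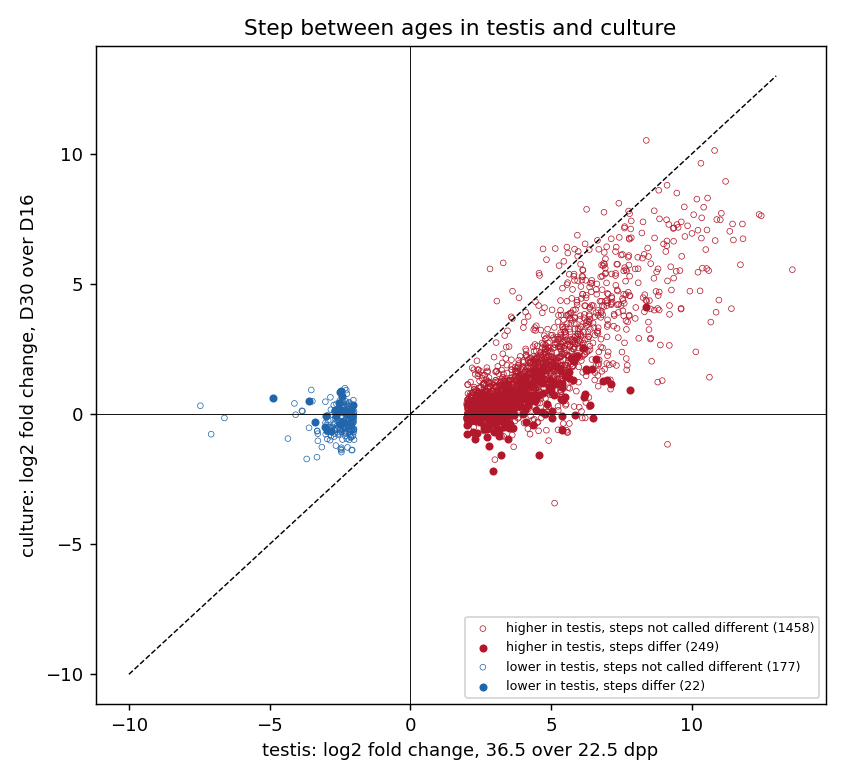
Log2 fold change of D30 over D16 in culture (vertical axis) against that of 36.5 over 22.5 dpp in the testis (horizontal axis) for the 1707 genes higher and 199 lower in the testis by 4-fold. Filled points mark the 249 and 22 genes whose steps differed at an adjusted p of at most 0.001 and 4-fold, and the dashed line marks equal steps. Between that line and 0 lie 1525 of the 1707 and 136 of the 199. The genes were chosen by their testis step, so this count cannot test whether steps in culture were smaller.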

How the data were processed

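Poly(A) RNA of whole testes was sequenced as single 50-base reads. Per the labels and methods, the authors aligned the reads with STAR 2.7.3a to GRCm38 and counted them per gene with HTSeq 0.12.4, in intersection-nonempty mode; the deposited table holds raw read counts. The strand setting is not given in the sources used here, so overlapping and antisense genes cannot be told apart. Of the 23 columns, 2 held identical values and were counted once, and the library labelled as fresh 6.5 dpp replicate 1 was left out of the fit.

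Counts were tested with edgeR 4.0.16 (R 4.3.3): trimmed mean (TMM) factors, filterByExpr, a quasi-likelihood fit over 21 libraries in 7 groups that share the spread, frozen grouped with fresh as in the study, and Benjamini-Hochberg adjustment over 19255 genes. With 2 libraries at 36.5 dpp, that spread rests mostly on the other groups. The thresholds were 4-fold and an adjusted p of at most 0.001, or an adjusted p under 0.05. The step test contrasted the testis step with that from D16 to D30. On simulated counts of 18757 genes, 80 of 100 genes changed 4-fold and 92 of 100 changed 8-fold were called at an adjusted p under 0.05. At that threshold 6 unchanged genes were called as well. Changed genes were drawn from the better expressed, as many up as down, and all others were equal in every group. The simulation therefore cannot address the stricter threshold or a shift in composition between ages. Alternatives were DESeq2 1.42.0, other scalings, filters and libraries, a replicate block and leaving out each library.

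Genes named are list members (the first 4 tested, the smallest p in each direction, or lists of at most 20 whole), the 15 smallest p, 10 largest folds and 10 highest levels, and genes the study names. The members and lists were chosen with earlier results of these data known. Promoters came from RefSeq (GRCm38.p6).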

Additional observations from a re-analysis of the deposited data

Results flagged for a closer look

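The change between 22.5 and 36.5 dpp was set against that between D16 and D30 in culture by the test of the difference itself. Taken with its sign, the step was higher in the testis for 269 genes and lower for 52. Among genes described above, the difference in log2 steps, testis minus culture, was 5.89 for Phospho1, 4.36 for Agpat2, 4.25 for Tssk6, 4.12 for Tuba4a and 4.00 for Hsd17b3. It was 4.00 for Ccsap, 3.69 for Cd46, 3.45 for Prkar2a, 3.20 for Cdyl, 3.13 for Camk4, 3.01 for Csnk1g2, 2.95 for Hspa1b, 2.80 for Cdkn1c and 2.18 for Rec8. In the other direction it was -3.11 for Col18a1, -2.94 for Fos, -2.70 for Slc4a5, -2.62 for Ces2g, -2.53 for Stra6, -2.38 for Cd276, -2.12 for Thbd and -2.09 for Prdm9. With library size as the only scaling the balance turned over, with 149 higher and 211 lower. No test for single outlying libraries was made in groups of 3 and 2.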

How the results depend on the processing

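Over 180 named genes and the alternatives, 2538 of 2698 log2 fold changes kept direction and side of the threshold, 127 lost the call in the same direction (46 genes), 18 gained it and 15 changed sign. None of those that changed sign had passed the test, and Prkaca passed it in the other direction with library size only (-0.35, adjusted p = 0.0333). The others were, with library size only, Brdt (-0.21), H2ac1 (-0.043), Catsperb (-0.015) and Pcna (-0.12), and without 1 library Dnah1 (-0.85 to 0.25), Dnah2 (-1.14 to 0.18), Pcna (-0.11 to 0.75) and Dcn (-1.53 to 0.10). Ddx4 changed sign with DESeq2 and RLE factors (0.16), at least 1 CPM in 2 libraries (0.015), only testis libraries (0.10), only the 5 libraries (0.049) and without 1 library (-0.11 to 0.10).

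The number of genes 4-fold higher was 919 with fresh 6.5 dpp replicate 1 in the fit, 3956 at 2-fold and an adjusted p under 0.05, and 1084 to 1206 without 1 library. The number 4-fold lower was 111 with RLE factors, 921 with library size only, 83 with only testis libraries, 43 with only the 5 libraries, 106 with fresh 6.5 dpp replicate 1, 3316 at 2-fold and 67 to 229 without 1 library. At any fold 8379 genes were lower with library size only, 3198 with only the 5 libraries and 3207 to 5036 without 1 library, and 3644 to 4240 were higher without 1 library. Steps differed for 702 genes with DESeq2, 199 with fresh and frozen libraries apart, 143 with fresh 6.5 dpp replicate 1 and 173 to 226 without 1 library. Beyond these constructions the cause was not tested. Genes near the floor of 3 counts are limited by depth.

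With the replicate number as a replicate block 1370 genes were 4-fold higher, 185 lower, 4267 and 5120 higher and lower at any fold, and steps differed for 202. Same-numbered libraries of both ages deviated together with correlations of 0.0935 and 0.0806, and nothing in the labels says that a number marks a shared animal or batch.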

Other observations

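Genes induced by interferon stood high in 22.5 dpp replicate 2 alone, and were chosen after their values were seen. Irf7, a transcription factor of the interferon response, had 4.73, 47.4 and 5.93 CPM at 22.5 dpp and 1.53 and 1.95 CPM at 36.5 dpp, and its log2 fold change was -3.47 ± 0.78 (adjusted p = 0.00141). Ifit3, an antiviral protein, had 0.542, 10.7 and 0.491 CPM at 22.5 dpp and 0.0899 and 0.359 CPM at 36.5 dpp (-4.09 ± 1.55, adjusted p = 0.036), and Isg15, a ubiquitin-like protein of that response, had 0.933, 12.4 and 0.807 CPM at 22.5 dpp and 0.539 and 0.279 CPM at 36.5 dpp (-3.55 ± 1.05, adjusted p = 0.00946). Without 22.5 dpp replicate 2 the log2 fold changes of Irf7, Ifit3 and Isg15 were -1.61, -1.16 and -1.10 (adjusted p = 0.00333, 0.512 and 0.202). Without this library 86 genes were 4-fold lower, against 199 with it, and 4165 against 5286 at any fold. Why it differed was not tested. The call of Ifit3 also ended without 36.5 dpp replicate 1 or 36.5 dpp replicate 2 (-3.44 and -5.40). That of Isg15 also ended without 36.5 dpp replicate 2 (-3.13).

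Of the 1707 genes that were 4-fold higher, 76.2% had their lowest level of the 22.5 dpp libraries in replicate 2, against 41.6% of all genes tested, and of the 199 that were lower 86.9% had their highest level there, against 42.1%.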
